A study of Mus musculus with 30 samples.

Results

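T cell genes were followed in the platelet and peripheral blood mononuclear cell (PBMC) transcriptomes of mice injected with melanoma cells. The list held 37 of the 54532 genes in the count tables. Its members were taken by gene symbol, as genes known for roles in T cells, with earlier results of these data known, and all 37 genes had counts in each of the 30 libraries. It covered 7 chains of the T cell receptor and CD3 complex, 9 intracellular signalling proteins, 5 surface receptors, 7 naive and lineage genes, 4 helper genes, 2 CD8 genes and 3 regulatory genes.

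A T cell recognises antigen through the alpha and beta chains of its receptor, which carry no signal themselves and depend on the CD3 chains and the zeta chain. The kinases Lck and Zap70 and the adaptor Lat pass the signal on, while Cd4 and Cd8a with Cd8b1 are the coreceptors of helper and cytotoxic cells, and Foxp3 directs regulatory T cells. Platelets have no nucleus and carry RNA from megakaryocytes. They use Lat as well, below their collagen receptor, and are not known to carry a T cell receptor.

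Female C57BL/6 mice, 6 to 8 weeks old at the start, were injected subcutaneously in the right flank, and blood was drawn at day 14. C group mice received Hank's balanced salt solution alone, and cells were given in 100 μl of it. S group mice received 2000 B16F10 cells, a mouse melanoma line, and had no visible tumor at autopsy. O group mice received 100000 B16F10 cells and carried large tumors. Each library was 1 pool of mice, with 5 platelet and 5 PBMC libraries per group. Platelet pools held 5 to 10 mice in the C group, 10 in the S group by the labels (9 to 11 by the methods) and 3 to 5 in the O group, and PBMC pools held 3 to 5 mice. In the paper most mice given the S group dose formed no visible tumor during follow-up. It states that the S group pools inevitably held mice that may never develop tumors. Group and dose cannot be told apart. Platelet pool sizes overlapped in part, since C1, C4 and C5 were pools of 10 mice like the S pools and C2 and C3 were pools of 5 like O3 and O5. The part of pool size in the results was not tested. Platelets came from platelet-rich plasma and PBMCs from the remaining blood by density centrifugation, so that platelet and PBMC libraries may share mice, although the sources do not tie the pools to each other. O group pools of the same number held as many mice in both tissues. No depletion of leukocytes from the platelets was described in the methods.

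Libraries held 12259036 to 25360080 counts in platelets and 13390983 to 15973449 in PBMCs, and the 37 genes took 0.0462% to 0.156% of them in platelets and 0.163% to 0.556% in PBMCs. Levels are given as CPM, the counts of a gene relative to the counts of its library, scaled by TMM factors over all 30 libraries. In the platelet libraries 9 of 10 platelet markers were called higher than in PBMCs (median log2 difference 4.29), whereas Gp1bb did not pass the filter on low counts. Hemoglobin genes took 4.02% to 39.0% of platelet counts and 3.23% to 24.5% of PBMC counts. The O1 library was the highest in both tissues and gave the lowest share of T cell genes in both. The PBMC S3 library had counts on 32900 genes against 20540 to 22991 in the other PBMC libraries, while its summed T cell gene level lay within the range of the other PBMC libraries.

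T cell genes were lower in platelets than in PBMCs, and unequally so. With 15 libraries of each tissue and group as a covariate, 30 of 37 genes were called lower by edgeR at an unadjusted P under 0.05, where 45.2% of all genes tested were lower, and only Lat was called higher, where 37.1% were. The same 31 genes passed at an adjusted P under 0.05 (44.7% of all genes were lower there). The median log2 difference of the 37 genes was -1.15 against -0.12 for all genes. In bulk libraries the number of T cells, the RNA per T cell and RNA carried by platelets themselves cannot be told apart. Their parts were not tested. Scaled by library totals alone, an alternative chosen after seeing the data, the medians were -2.35 for the list and -1.34 for all genes, so the list lay -1.01 from the median gene against -1.02 with TMM. By that scaling 36 of the 37 were called lower, where 78.8% of all genes were lower. The log2 difference of Lat was then -0.05 (unadjusted P = 0.773) by edgeR, and its higher level in platelets holds only relative to the median gene.

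The receptor and CD3 chains were all lower in platelets, by log2 differences of -0.87 for Trbc2 to -2.52 for Cd3e. Cd3e, the epsilon chain, showed the lowest value of the 37 genes (-2.52 ± 0.21), while Cd3d, whose start site lies 1355 bases from that of Cd3g and 27841 bases from that of Cd3e on chromosome 9 (GRCm38), differed by -0.89 ± 0.10. All 5 surface receptors were lower, with Cd6 and Cd5, a pair of inhibitory scavenger-type receptors encoded by neighbouring genes on chromosome 19, at -2.31 ± 0.15 and -2.27 ± 0.14, and the adhesion receptor Cd2 at -0.98 ± 0.10. Among naive and lineage genes 5 of 7 were called lower. The interleukin 7 receptor gene Il7r (-2.08 ± 0.10) and the membrane protein gene Ms4a4b (-2.15 ± 0.15) were far below the transcription factor genes Tcf7 (-0.49 ± 0.10), Satb1 (-0.60 ± 0.11) and Bcl11b (-0.86 ± 0.13), and Lef1 (-0.19 ± 0.13) and Dapl1 (0.10 ± 0.14) were not called.

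All 4 helper genes were called lower, with Icos, a costimulatory receptor, at -2.14 ± 0.19 and Cd4 at -2.04 ± 0.13, whereas Gata3, the transcription factor of type 2 helper cells, was at -0.50 ± 0.13 and Rora at -1.02 ± 0.12. Cd8a (-1.71 ± 0.10) and Cd8b1 (-1.23 ± 0.09) were both lower. Of the regulatory genes, Foxp3 (-0.49 ± 0.11) was closer to its PBMC level than the interleukin 2 receptor gene Il2ra (-1.85 ± 0.16) and Ikzf2, which encodes Helios (-1.73 ± 0.14). The signalling proteins spread the most. Trat1, Txk, Zap70 and Ubash3a were called lower, Lck (-0.10 ± 0.10), Themis (-0.18 ± 0.13), Skap1 (0.11 ± 0.12) and Sh2d1a (0.27 ± 0.14) were not called, and Lat was higher by 1.29 ± 0.20.

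**Figure D1:**
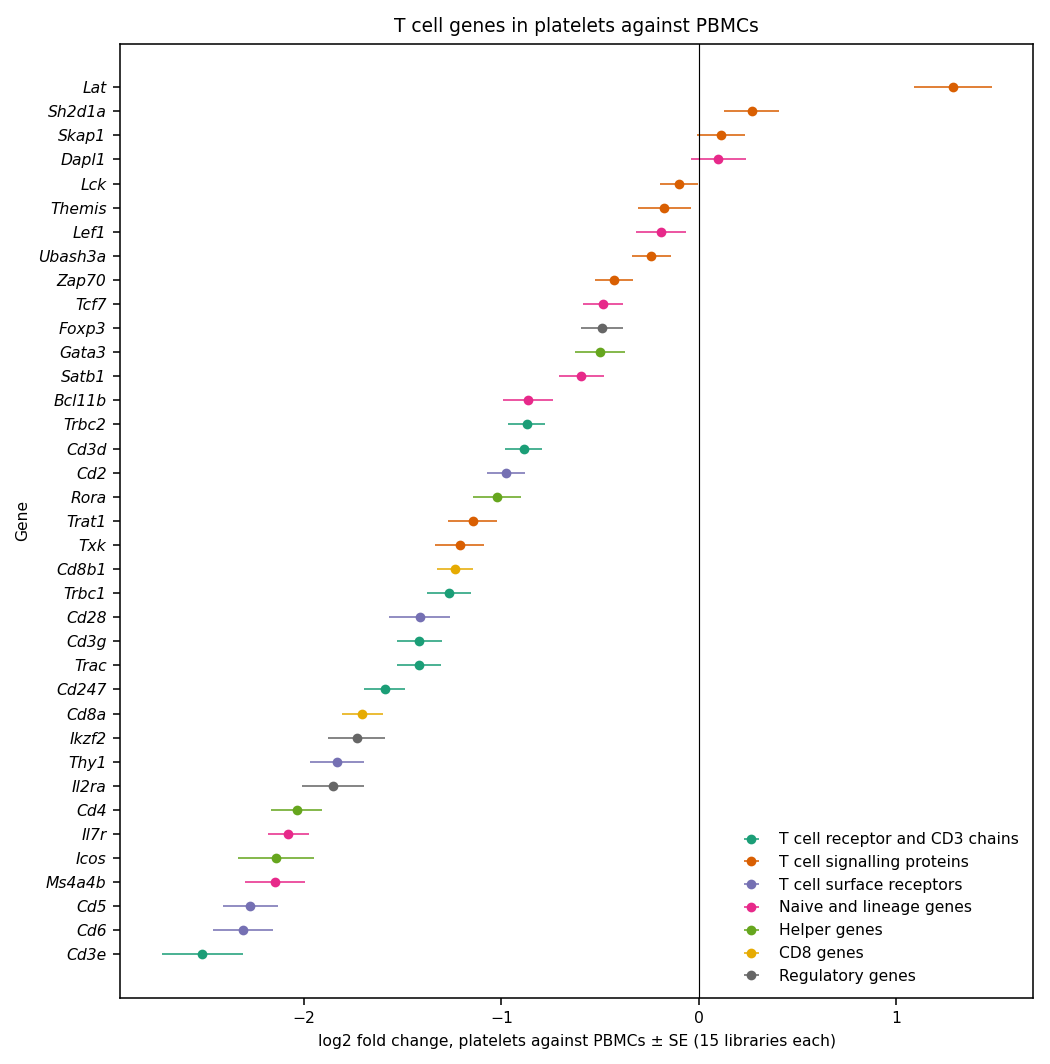
Log2 fold change of each of the 37 T cell genes in platelets against PBMCs (x axis, TMM scaling) with the SE of the edgeR fit over 15 libraries per tissue, coloured by subgroup. Cd3e lies lowest at -2.52 and Lat alone lies above 1, at 1.29, a position that holds with TMM and not with library totals alone.

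Per kilobase of exon, Trbc2 ranked first in both tissues, with 178 ± 36.4 CPM per kb in PBMCs and 101 ± 24.2 in platelets (mean ± SD, 15 libraries each). Tcf7 ranked second in PBMCs at 118 ± 17.2 CPM per kb. In platelets Lat ranked second at 95.6 ± 43.9, close to Tcf7 at 86.2 ± 17.2, and the order of these 3 genes lies within their spread over libraries. Cd3e stood at 15.8 ± 3.04 CPM per kb in PBMCs and 3.26 ± 2.37 in platelets. The lowest levels per kb were those of Rora in PBMCs (1.09 ± 0.223) and Il2ra in platelets (0.413 ± 0.217). Trbc1 and Trbc2 were 95.6% identical over 521 aligned transcript positions, so reads may be split between them and their values are uncertain. Of the exon bases of Cd247, 56.4% lie over Pou2f1 on the opposite strand, as do 26.6% of Sh2d1a over Tenm1. Of the exon bases of Foxp3, 18.6% are shared with Flicr on the same strand and 12.9% with Ccdc22 on the opposite strand. Strand-specific counting was not stated, so these values are uncertain.

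The 250 bases before the annotated start are shown for Cd3e, Cd3g and Cd5, which were called higher in S group platelets, and for Lat, which was not. Sequences are from RefSeq, build GRCm38.p6, 5′ to 3′ on the strand of the gene, with matches on either strand to the ETS motif (AGGAAG or CGGAAG), the RUNX motif (TGTGGT or TGCGGT) and the GATA motif (AGATAA or TGATAA) in capitals.
Cd3e, chr9:45009612-45009861, minus strand: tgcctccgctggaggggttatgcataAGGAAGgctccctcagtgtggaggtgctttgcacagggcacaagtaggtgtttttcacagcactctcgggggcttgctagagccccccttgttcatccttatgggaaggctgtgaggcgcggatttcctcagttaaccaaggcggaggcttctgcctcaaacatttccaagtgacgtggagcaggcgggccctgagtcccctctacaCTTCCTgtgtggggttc
Cd3g, chr9:44980432-44980681, minus strand: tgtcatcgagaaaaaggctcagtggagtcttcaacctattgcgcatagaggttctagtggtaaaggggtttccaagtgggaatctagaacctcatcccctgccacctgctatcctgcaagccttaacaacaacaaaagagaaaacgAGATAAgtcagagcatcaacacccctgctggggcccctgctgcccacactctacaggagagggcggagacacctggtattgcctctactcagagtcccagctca
Cd5, chr19:10738975-10739224, minus strand: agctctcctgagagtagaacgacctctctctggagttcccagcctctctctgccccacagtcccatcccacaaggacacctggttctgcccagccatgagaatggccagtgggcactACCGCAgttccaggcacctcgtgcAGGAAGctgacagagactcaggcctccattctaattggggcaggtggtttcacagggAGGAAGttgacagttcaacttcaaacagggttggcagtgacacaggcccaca
Lat, chr7:126369569-126369818, minus strand: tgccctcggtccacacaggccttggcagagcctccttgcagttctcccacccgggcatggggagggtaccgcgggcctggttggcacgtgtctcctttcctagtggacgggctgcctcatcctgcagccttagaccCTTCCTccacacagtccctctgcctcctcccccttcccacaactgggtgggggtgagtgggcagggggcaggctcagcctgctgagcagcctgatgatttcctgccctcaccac

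Cd3e held 2 ETS matches, Cd5 held 2 ETS matches and 1 RUNX match, Cd3g held 1 GATA match and no ETS match, and Lat held 1 ETS match. The promoter table had an entry for 24 of the 37 genes, with 38 promoters in all. An ETS match stood in 42.1% of these 38 and in 39.2% of all 32851 promoters of the same length, a RUNX match in 18.4% and 18.6%, and a GATA match in 15.8% and 16.6%. The TCF/LEF motif CTTTGA stood in 15.8% and 13.8%, and the E-box (CAGCTG or CACCTG) in 28.9% and 27.7%. These short motifs were about as common before the T cell genes as before other genes.

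In platelets, 8 T cell genes were higher in the S group than in the C group and none was lower. These were Thy1, Cd5, Cd3g, Cd4, Cd6, Cd3e, Cd247 and Foxp3, which include 3 of 7 receptor and CD3 chains, 3 of 5 surface receptors, 1 of 4 helper genes and 1 of 3 regulatory genes, but no signalling, naive or lineage, or CD8 gene. The calls rest on an unadjusted P under 0.05 by edgeR. By this rule 4.29% of all genes were higher. The median log2 change of the 37 genes was 0.26, against -0.01 for all genes, and 32 of 37 values were above 0. No T cell gene passed at an adjusted P under 0.05 by edgeR (smallest 0.746) or by DESeq2, and 0.00754% of all genes did by edgeR, which is 1 of 13268.

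Thy1, a surface glycoprotein of T cells, measured 49.7, 26.1, 29.5, 32.9 and 31.3 CPM in C group platelets and 72.3, 44.00, 60.03, 40.9 and 89.5 CPM in S group platelets, in library order. C1 lay above S2 and S4, and the other C libraries lay below every S library. The log2 change was 0.83 ± 0.23 (unadjusted P = 0.00238, edgeR). Cd5 measured 16.03, 10.9, 14.6, 9.34 and 9.28 CPM in the C group and 25.5, 14.5, 24.1, 14.7 and 31.01 CPM in the S group. The groups overlapped through S2 and S4, which lay near C1 and C3, and the log2 change was 0.84 ± 0.24 (unadjusted P = 0.00358, edgeR). Cd6 measured 18.01, 9.47, 12.8, 15.4 and 14.1 CPM in the C group and 25.8, 17.7, 25.9, 14.1 and 32.7 CPM in the S group, a log2 change of 0.70 ± 0.24 (unadjusted P = 0.00959, edgeR). S2 and S4 lay inside the C group.

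Cd3e measured 20.98, 8.99, 5.88, 11.9 and 8.89 CPM in C group platelets and 25.5, 12.5, 24.1, 13.3 and 37.5 CPM in S group platelets. S1, S3 and S5 exceeded every C library, while S2 and S4 lay below C1. The log2 change of 0.99 ± 0.34 was the largest of the 37 genes (unadjusted P = 0.0107, edgeR). Cd3g, the gamma chain, measured 22.3, 15.4, 22.1, 17.96 and 18.3 CPM in the C group and 39.1, 22.7, 33.4, 19.9 and 34.8 CPM in the S group, a log2 change of 0.60 ± 0.20 (unadjusted P = 0.00926, edgeR). Only S4 lay inside the C group. Cd247, the zeta chain, measured 20.4, 17.1, 20.1, 13.3 and 18.96 CPM in the C group and 27.9, 22.2, 27.4, 20.4 and 27.4 CPM in the S group. Its groups touched without overlap, with C1 just below S4, and the log2 change was 0.44 ± 0.17. The other chains were not called, with log2 changes of 0.22 ± 0.16 for Cd3d, 0.26 ± 0.16 for Trac, 0.07 ± 0.21 for Trbc1 and 0.07 ± 0.17 for Trbc2.

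Cd4 measured 34.1, 17.2, 15.9, 18.9 and 17.98 CPM in C group platelets and 37.6, 24.7, 34.96, 23.8 and 54.01 CPM in S group platelets. C1 stood apart from the other C libraries and reached the middle of the S group, and the log2 change was 0.74 ± 0.25 (unadjusted P = 0.00962, edgeR). Icos showed a log2 change of 0.66 ± 0.39, Rora of 0.32 ± 0.25 and Gata3 of 0.08 ± 0.25, none of them called. Cd8a measured 28.00, 21.7, 23.6, 26.3 and 29.2 CPM in the C group and 40.6, 22.1, 27.7, 28.1 and 51.8 CPM in the S group. The S2, S3 and S4 libraries lay within the C group, and the log2 change of 0.37 ± 0.22 was not called, nor was that of Cd8b1 (0.23 ± 0.16). Without S5 the change of Cd8a was 0.15, and without S2 it was 0.48 and called. Foxp3 measured 7.32, 7.14, 4.63, 8.20 and 6.32 CPM in the C group and 10.1, 8.45, 11.3, 9.26 and 8.35 CPM in the S group. The S libraries exceeded all C libraries, and the log2 change was 0.46 ± 0.20 (unadjusted P = 0.0334, edgeR). The call was lost with no filter on low counts and without any 1 of C2, C3, C5, S1 and S3. Foxp3 and Cd247 were the only members whose S and C platelet libraries did not overlap, which held for 0.862% of all genes with at least 100 counts over both groups. Both share exon bases with other genes, so their values are uncertain.

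No naive or lineage gene was called. Tcf7, a transcription factor of naive and memory T cells and the most abundant of them, measured 182, 254, 197, 237 and 223 CPM in C group platelets and 267, 220.3, 222, 307 and 197 CPM in S group platelets, with a log2 change of 0.10 ± 0.17. Lef1, its partner factor, changed by -0.10 ± 0.17, Satb1 by -0.19 ± 0.19 and Dapl1 by -0.40 ± 0.24. Lck, the kinase that starts receptor signalling, measured 128, 155, 161, 128 and 121 CPM in the C group and 168, 153, 168, 185 and 139 CPM in the S group, and its log2 change of 0.18 ± 0.15 was not called. The groups of Tcf7 and of Lck overlapped widely. The remaining signalling genes, none of them called, lay between -0.23 for Themis and 0.31 for Trat1.

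**Figure D2:**
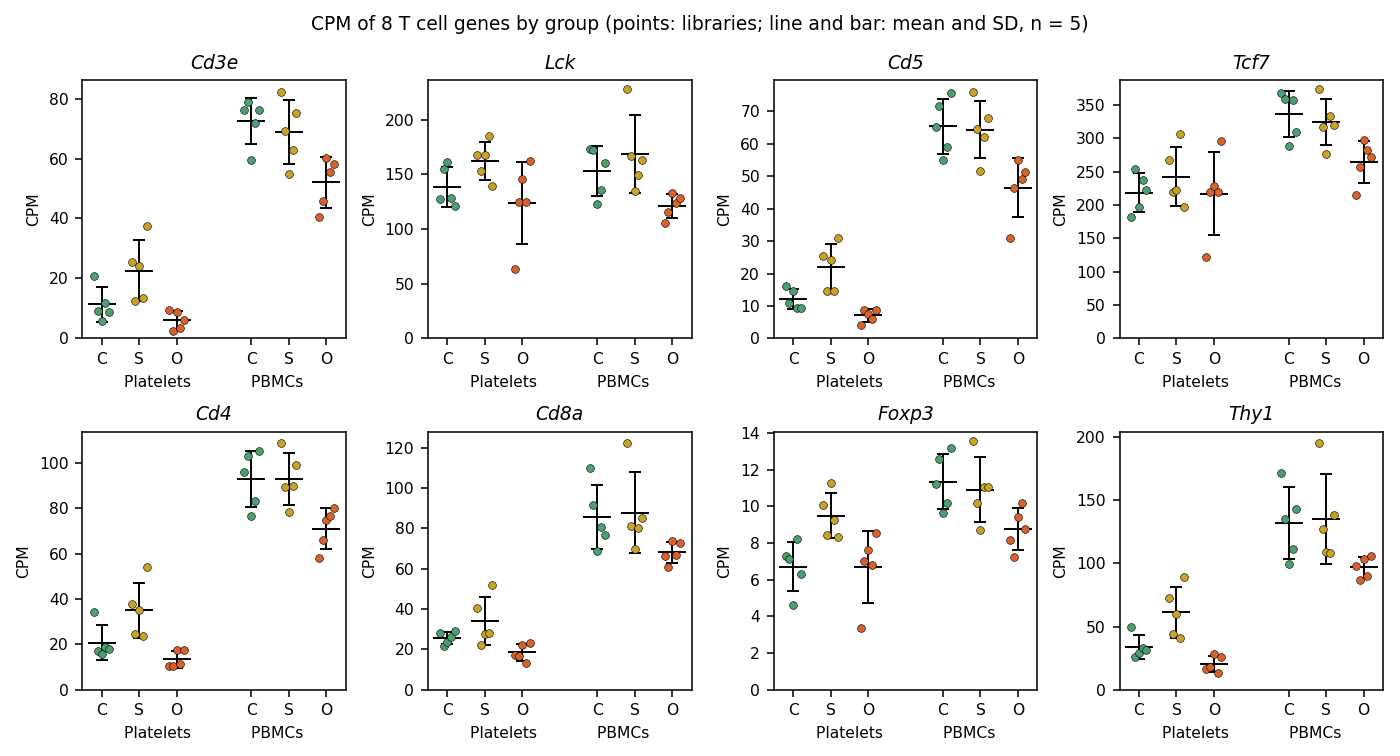
CPM (y axis, from 0) of 8 T cell genes in the C, S and O groups of platelets and of PBMCs; points are libraries, the horizontal line and bar are the mean and SD of 5 libraries. In platelets the means of all 8 genes are highest in the S group and lowest in the O group, although the C and O means of Tcf7 and Foxp3 nearly coincide. In PBMCs the means of the C and S groups lie above that of the O group for all 8 genes.

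More T cell genes were called between S and O group platelets. Of the 37 genes 20 were higher in the S group and none lower at an unadjusted P under 0.05 by edgeR, where 7.23% of all genes were higher. They were all 7 receptor and CD3 chains, all 5 surface receptors, both CD8 genes, Cd4 and Icos, Il7r and Ms4a4b, Il2ra, and Trat1, an adaptor bound to the receptor complex. The median log2 difference was 0.52 against -0.01 for all genes. At an adjusted P under 0.05 none passed by edgeR (smallest 0.225, and 0% of all genes passed), while 7 passed by DESeq2, namely Cd5, Thy1, Cd4, Cd3e, Cd6, Cd8b1 and Cd3g, where 1.1% of all genes were higher.

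Cd3e measured 9.64, 2.46, 8.68, 3.34 and 6.12 CPM in O group platelets. Every O library lay below every S library, with a log2 difference of 1.80 ± 0.43 (unadjusted P = 0.00125, edgeR). Thy1 measured 16.2, 18.4, 28.4, 13.6 and 25.8 CPM in the O group, and S exceeded O by 1.49 ± 0.26 on the log2 scale (unadjusted P = 0.000102, edgeR). Cd5 measured 4.28, 8.62, 7.64, 6.07 and 8.90 CPM in the O group, with a difference of 1.53 ± 0.26. These groups did not overlap either. Cd6 measured 3.03, 6.86, 12.7, 6.75 and 10.9 CPM in the O group, with a difference of 1.43 ± 0.33. Cd4 measured 10.5, 10.6, 17.5, 11.3 and 17.7 CPM in the O group, with a difference of 1.28 ± 0.26. Neither gene overlapped between S and O. Cd3g measured 10.2, 12.4, 21.5, 9.86 and 15.4 CPM in the O group, with a difference of 1.02 ± 0.25 and with O3 above S4.

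Cd8b1, the beta chain of the CD8 coreceptor, measured 28.8, 22.6, 25.5, 20.7 and 26.1 CPM in the C group, 32.9, 22.00, 30.6, 27.99 and 35.8 CPM in the S group and 10.7, 15.9, 18.9, 13.5 and 20.9 CPM in the O group. S and O did not overlap, with a log2 difference of 0.81 ± 0.19 (unadjusted P = 0.0012, edgeR). Cd8a measured 17.5, 16.7, 22.2, 13.4 and 23.2 CPM in the O group and differed by 0.78 ± 0.25, with S2 below the highest O library. In all, 13 of the 37 genes had every S library above every O library, as did 2.63% of all genes with at least 100 counts. They were Cd3e, Cd3d, Trac, Trbc2, Trat1, Cd2, Cd5, Cd6, Thy1, Il7r, Ms4a4b, Cd4 and Cd8b1. Foxp3 measured 3.39, 7.03, 7.64, 6.83 and 8.55 CPM in the O group, a difference of 0.41 ± 0.22. Tcf7 measured 122, 220.1, 229, 219 and 297 CPM, a difference of 0.08 ± 0.22, and Lck measured 63.3, 125, 146, 124 and 162 CPM, a difference of 0.31 ± 0.21. None of the 3 was called, although Foxp3 was without O5, and O1 was the lowest O library for each. Without O1 the differences were 0.25 for Foxp3, -0.07 for Tcf7 and 0.14 for Lck. Lat measured 412, 284, 159, 179 and 133 CPM in the C group, 265, 216, 335, 195 and 189 CPM in the S group and 473, 387, 180.4, 461 and 100.5 CPM in the O group. O1, O2 and O4 were among the highest platelet libraries and O5 was the lowest, and the log2 difference of S against O, -0.53 ± 0.39, was the lowest of the 37 and not called.

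O group platelets held lower levels of 9 T cell genes than C group platelets, and none was higher, where 2.17% of all genes were lower at an unadjusted P under 0.05 by edgeR. They were Cd8b1, Cd5, Thy1, Il7r, Ms4a4b, Trac, Cd6, Cd4 and Cd8a. The median log2 change was -0.35 against -0.01 for all genes. None passed at an adjusted P under 0.05 by edgeR (smallest 0.91; 0% of all genes) or by DESeq2. With library totals alone as the scaling, an alternative chosen after seeing the data, 0 of the 37 were called, where 0.399% of all genes were lower, and the median was -0.17 against 0.12 for all genes. The count moved to 4 without C1, to 5 without O2, to 5 without O4 and to 13 without O3, and the calls of Trac, Cd4, Cd8a, Il7r and Ms4a4b each depended on at least 1 library.

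Cd8b1 changed by -0.60 ± 0.17 on the log2 scale (unadjusted P = 0.00474, edgeR), with only O5 reaching the lowest C library. Cd5 changed by -0.72 ± 0.22 (unadjusted P = 0.00705, edgeR) and was the only member with every O library below every C library, as were 0.515% of genes with at least 100 counts. Thy1 changed by -0.69 ± 0.22, with O3 above C2. Il7r measured 47.7, 28.2, 31.4, 37.6 and 50.1 CPM in the C group, 46.1, 34.8, 46.03, 38.2 and 79.5 CPM in the S group and 24.4, 22.4, 30.6, 18.7 and 31.2 CPM in the O group. Ms4a4b measured 60.2, 25.4, 37.2, 35.9 and 37.7 CPM in the C group, 53.1, 35.5, 49.3, 32.6 and 114 CPM in the S group and 26.8, 19.9, 30.9, 12.7 and 27.3 CPM in the O group. S5 was the highest platelet library for both genes, and O against C gave -0.58 ± 0.20 for Il7r and -0.69 ± 0.26 for Ms4a4b. Trac, the constant region of the alpha chain, measured 35.6, 31.97, 33.5, 23.7 and 26.2 CPM, 44.8, 30.1, 44.3, 31.9 and 35.3 CPM and 9.64, 18.4, 28.3, 15.2 and 26.4 CPM in the C, S and O groups, a change of -0.60 ± 0.24 in O against C. Cd3e changed by -0.84 ± 0.42 and was not called (unadjusted P = 0.0709, edgeR), although it was without O1 or without C3, and the change was -0.52 without C1. The regulatory genes were not called, with Foxp3 at 0.03 ± 0.24, and no signalling protein was called, with Lat at 0.56 ± 0.45 and Zap70 at 0.00 ± 0.21.

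In PBMCs no T cell gene was called between the S and C groups. This held in either direction at an unadjusted P under 0.05 by edgeR, where 2.64% of all genes were, and none passed at an adjusted P under 0.05 by edgeR or DESeq2, where 0.033% of all genes did by edgeR. The log2 changes ran from -0.14 for Txk to 0.14 for Lck, with a median of -0.00 against 0.01 for all genes. With the replicate number as a block, which paired these libraries, 1 member was called, the Tec-family kinase gene Txk, at a log2 change of -0.14 ± 0.05 (unadjusted P = 0.0175, edgeR). The share of all genes called under the block was not taken. Without C2 the unblocked count was 2 and without C3 it was 1.

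Cd3e measured 76.2, 78.9, 59.6, 71.8 and 76.1 CPM in C group PBMCs and 82.1, 69.1, 54.7, 62.8 and 75.1 CPM in S group PBMCs, a log2 change of -0.07 ± 0.10. Cd5 measured 65.1, 71.6, 55.1, 59.1 and 75.8 CPM and 75.99, 64.5, 51.5, 62.1 and 67.9 CPM, a change of -0.02 ± 0.10. S1 was the highest and S3 the lowest library for both genes, with every C library between them. Cd4 measured 96.1, 103, 76.6, 83.4 and 105 CPM and 109, 89.2, 78.3, 89.8 and 98.9 CPM in the C and S groups, and Foxp3 measured 11.2, 12.6, 9.62, 10.2 and 13.2 CPM and 13.6, 10.2, 8.72, 11.04 and 11.1 CPM. S1 was again the highest library. The log2 changes of Cd4 and Foxp3 were 0.01 ± 0.10 and -0.05 ± 0.12. The 8 genes that were higher in S group platelets lay between -0.07 and 0.09 in PBMCs.

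O group PBMCs held less of most T cell genes. Against the C group 26 of 37 were lower and none higher at an unadjusted P under 0.05 by edgeR, where 4.39% of all genes were lower. All 37 values were below 0, from -0.47 for Cd5 to -0.05 for Rora, with a median of -0.34 against 0.00 for all genes. The lower genes were all 7 receptor and CD3 chains, 6 of 9 signalling proteins, 3 of 5 surface receptors, 6 of 7 naive and lineage genes, both CD8 genes, Cd4 and Foxp3. None passed at an adjusted P under 0.05 by edgeR (smallest 0.337; 0% of all genes), while Cd3d, Cd3e and Il7r passed by DESeq2, where 0.176% of all genes were lower. The count was 17 without C2 and 24 without O1.

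Cd3d, the delta chain, measured 68.3, 72.9, 55.7, 60.6 and 60.4 CPM in the C group, 85.7, 59.7, 53.4, 63.02 and 59.8 CPM in the S group and 35.4, 46.2, 50.4, 50.5 and 50.6 CPM in the O group. Every O library lay below every C and every S library. The change was -0.43 ± 0.11 in O against C (unadjusted P = 0.00207, edgeR). Cd3e measured 40.5, 45.9, 60.03, 55.6 and 58.1 CPM in the O group, a change of -0.46 ± 0.11, with O3 just above the lowest C library. Cd3g measured 67.5, 64.1, 44.1, 52.3 and 60.7 CPM, 72.8, 54.7, 45.6, 47.4 and 57.7 CPM and 33.2, 41.9, 46.4, 44.8 and 46.96 CPM in the C, S and O groups, a change of -0.42 ± 0.12. O5, O3 and O4 lay at or above the lowest C library of Cd3g. Il7r measured 177, 179, 139.8, 156 and 155 CPM in the C group, 183, 161, 131, 174 and 153 CPM in the S group and 129, 123, 133, 116 and 138 CPM in the O group, a change of -0.32 ± 0.09. With Cd3d it was the only member with every O library below every C library, where 1.09% of genes with at least 100 counts were. Trbc2, a constant region of the beta chain, measured 141, 157, 118, 131 and 140.4 CPM, 174, 123, 112, 119 and 134 CPM and 69.00, 99.7, 121, 105 and 105 CPM in the C, S and O groups, a change of -0.44 ± 0.13. Bcl11b, a factor that fixes T cell identity, measured 113, 123, 98.6, 101 and 102 CPM, 97.2, 106, 94.5, 87.2 and 106 CPM and 67.1, 74.7, 101, 86.5 and 84.9 CPM, a change of -0.36 ± 0.11. O1 was the lowest library for each of these genes except Il7r, and O3 overlapped the C group for Trbc2 and Bcl11b. Cd8a changed by -0.31 ± 0.12, and its call was lost without any 1 of C1, C2 and O2.

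Most T cell genes were also higher in S group than in O group PBMCs. At an unadjusted P under 0.05 by edgeR 26 of 37 genes were higher and none lower, where 4.43% of all genes were higher, with a median log2 difference of 0.36 against -0.00 for all genes. This comparison shares its O libraries with O against C. None passed at an adjusted P under 0.05 by edgeR (smallest 0.296; 0% of all genes), and by DESeq2 Trat1 alone passed, where 0.185% of all genes were higher. Trat1 measured 14.8, 17.99, 13.5, 11.96 and 16.4 CPM in the C group, 17.1, 15.8, 14.00, 18.3 and 15.2 CPM in the S group and 10.7, 12.7, 12.5, 11.4 and 11.97 CPM in the O group. S and O did not overlap (0.42 ± 0.08, unadjusted P = 0.000445, edgeR). Lck measured 174, 172, 123, 136 and 161 CPM, 228, 167, 135, 149 and 164 CPM and 106, 115, 133, 124 and 129 CPM in the C, S and O groups, and S exceeded O by 0.44 ± 0.12. Zap70, the kinase recruited to the CD3 and zeta chains, measured 61.9, 63.9, 48.3, 57.6 and 56.9 CPM, 74.9, 56.2, 51.3, 57.9 and 58.5 CPM and 35.5, 43.1, 52.6, 48.6 and 46.6 CPM, a difference of 0.37 ± 0.11. For Lck S1 stood above all other libraries.

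Cd4 measured 57.9, 66.03, 74.8, 76.6 and 80.04 CPM in O group PBMCs and Cd8a 66.5, 60.99, 73.9, 66.9 and 72.6 CPM, against 110.1, 91.6, 68.9, 80.7 and 76.8 CPM of Cd8a in the C group and 122, 81.4, 69.98, 80.1 and 85.02 CPM in the S group. S exceeded O by 0.36 ± 0.10 for Cd4 and by 0.33 ± 0.12 for Cd8a, which was 0.20 without S1 and whose call was lost without O2. S3 was the only S library inside the O group for either gene. Tcf7 measured 368, 359, 289, 357 and 310.2 CPM in the C group, 375, 318, 277, 334 and 320.2 CPM in the S group and 215, 257, 297, 282 and 272 CPM in the O group, a difference of 0.27 ± 0.10. Foxp3 measured 8.15, 7.24, 9.44, 10.2 and 8.77 CPM in the O group, a difference of 0.29 ± 0.12 whose call was lost without any 1 of S1, S4, S5, O1, O2 and O5. Cd5 measured 31.02, 46.3, 55.1, 49.01 and 51.2 CPM, a difference of 0.44 ± 0.14. Rora was the only member with a value below 0 (-0.04 ± 0.20). Il2ra (0.39 ± 0.18) and Ikzf2 (0.19 ± 0.10) were not called. Every S library exceeded every O library for 8 genes, Cd3d, Cd247, Lck, Skap1, Themis, Trat1, Thy1 and Il2ra, as for 1.07% of genes with at least 100 counts.

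**Figure D3:**
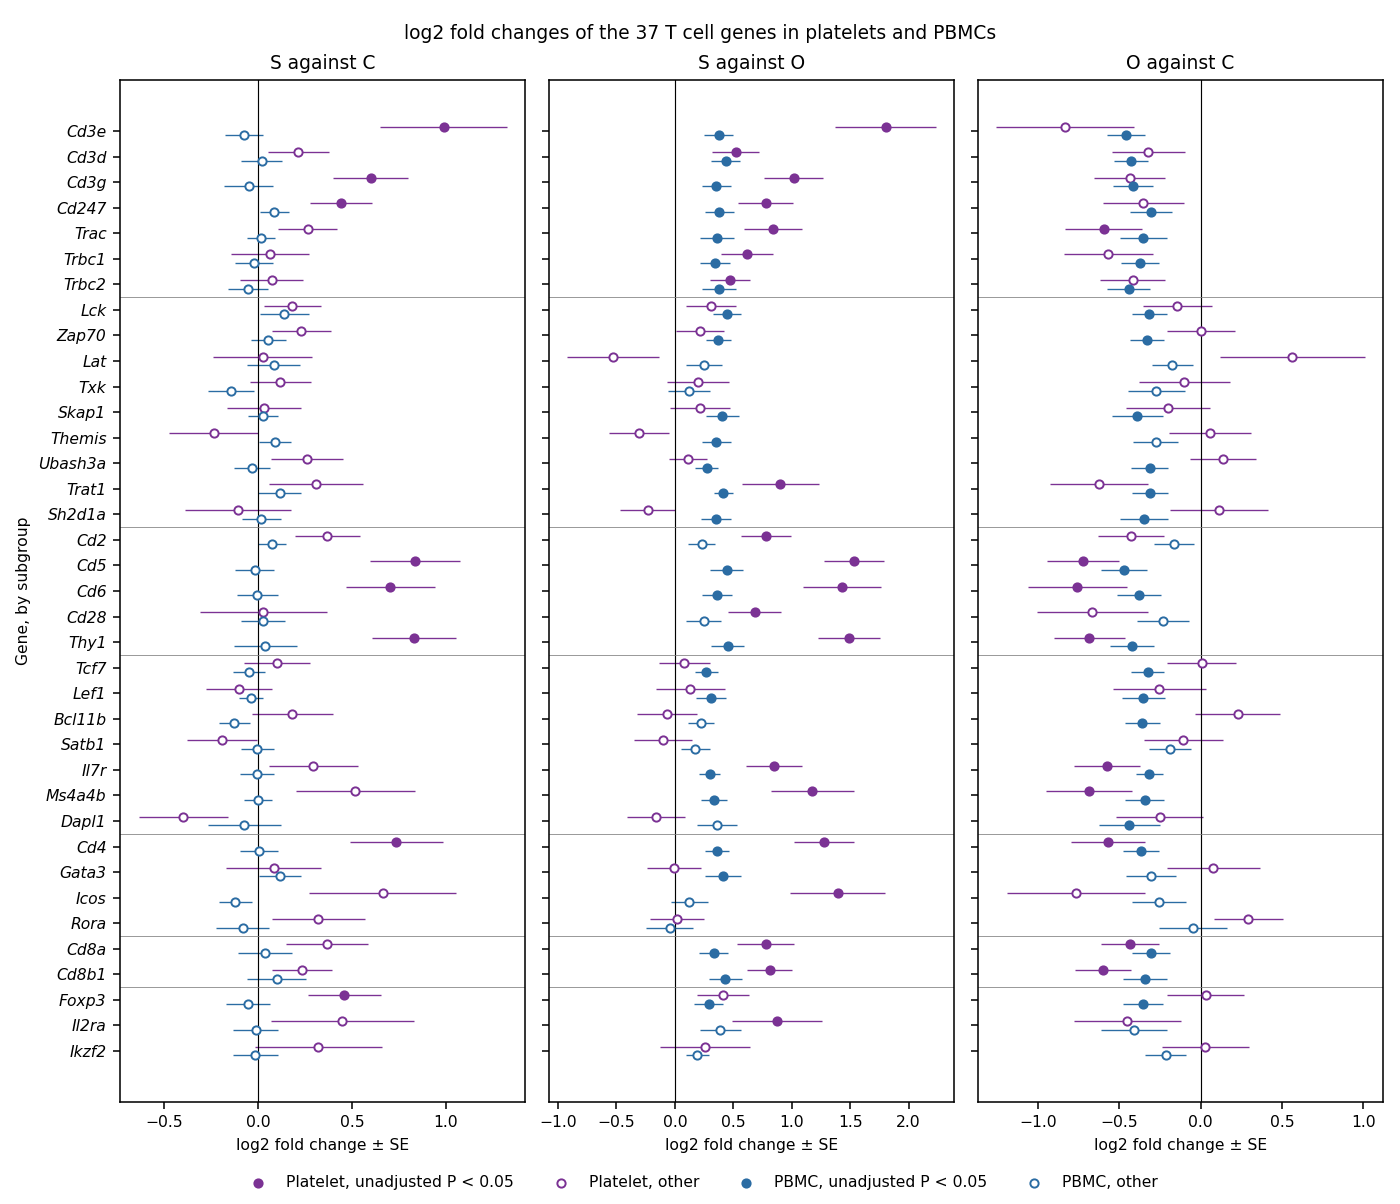
Log2 fold change ± SE (x axis, scale differs between panels) of the 37 T cell genes, by subgroup, in S against C, S against O and O against C; violet is platelets, blue is PBMCs, and filled points passed an unadjusted P under 0.05 by edgeR. The 8 platelet genes filled in S against C lie at 0.44 to 0.99, and no PBMC gene is filled there, while 26 PBMC genes are filled in each of the comparisons with the O group.

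Whether platelets and PBMCs differed in their response was tested as the platelet change minus the PBMC change over all 30 libraries. For S against C, 6 genes changed more in platelets and none less at an unadjusted P under 0.05 by edgeR, where 3.33% of all genes were higher. They were Cd5 (difference of the log2 changes 0.82 ± 0.28), Thy1 (0.75 ± 0.29), Cd4 (0.69 ± 0.27), Cd3e (1.01 ± 0.41), Cd3g (0.62 ± 0.26) and Cd6 (0.68 ± 0.32). For S against O, 8 genes had a higher difference in platelets and 3 a lower one, where 5.86% and 7.75% of all genes did. Higher were Cd5, Cd3e, Thy1, Cd4, Cd6, Icos, Ms4a4b and Cd3g, from 0.54 for Cd3g to 1.34 for Cd3e. Lower were Lat (-0.93 ± 0.44), Themis (-0.80 ± 0.31) and Sh2d1a (-0.72 ± 0.32). With library totals alone the count for S against O was 2, with 1 in each direction, where 3.72% of all genes were higher and 3.41% lower, and without platelet S5 it was 7. In S against C the calls of Cd3e and Cd4 were lost without platelet S5, that of Cd3g without platelet S1 and that of Cd6 without any 1 of 10 libraries. For O against C only Bcl11b (0.69 ± 0.29) and Ubash3a (0.56 ± 0.23), a suppressor of receptor signalling, were higher, where 3.89% of all genes were, a share close to that of the list, and the count was 0 without the platelet S3 library, 1 without platelet C1 or O5, 4 without PBMC C3 and 5 without platelet C2, C3 or O1 or PBMC O3. With no filter on low counts the count was 1. With library totals alone it was 7, where 10.1% of all genes were higher, and all 37 values were above 0 where the median of all genes tested was itself 0.47. Without platelet O5 the difference of Bcl11b was 0.30 and that of Ubash3a 0.36.

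At an adjusted P under 0.05 no member passed any of the 3 tests by edgeR, and 0% of all genes passed in S against C, 0% in S against O and 0% in O against C. By DESeq2 only Cd5 passed, in S against O, where 0.37% of all genes were higher. The naive factors Tcf7 and Lef1 did not pass in any of the 3 tests over all libraries, although Tcf7 did in O against C without platelet C2 or without platelet O1, with differences of 0.12 ± 0.24 and -0.09 ± 0.31 in S against C. Foxp3 stood at 0.48 ± 0.25 there (unadjusted P = 0.0617, edgeR), and its call by this rule varied with the tool and the libraries kept.

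Scaling by library totals alone, chosen after seeing the data, shifted whole comparisons. The median of all genes became 0.20 in platelet S against C, 0.08 in platelet S against O, 0.36 in PBMC S against O and -0.37 in PBMC O against C. Relative to that median the T cell genes lay 0.26, 0.46, 0.33 and -0.32 away in these comparisons, against 0.28, 0.53, 0.36 and -0.34 with TMM. In platelets 12 T cell genes were then higher in S against C, in place of 8, where 10.3% of all genes were higher, and 16 in S against O, in place of 20, where 5.75% were. In PBMCs 35 were higher in S against O, where 24.3% of all genes were higher, and 35 were lower in O against C, where 27.7% were lower, in place of 26 in each. No gene called with TMM in a comparison of groups changed sign among those named here.

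Ratios between genes of 1 library, taken after adding 0.5 CPM to each, depend little on how that library is scaled. The log2 ratio of Cd4 to Cd8a in platelets was 0.04 ± 0.22 in the S group, -0.35 ± 0.38 in the C group and -0.46 ± 0.20 in the O group (mean ± SD, 5 libraries each). S exceeded O by 0.50 (two-sided exact permutation test, p = 0.0159, adjusted p = 0.286 over 18 tests) and C by 0.39 (exact permutation p = 0.0794, adjusted p = 0.357). In PBMCs the ratio was 0.10 ± 0.15 in the S group and 0.05 ± 0.15 in the O group. The log2 ratio of Cd3e to the B cell receptor gene Cd79a in platelets was -3.85 ± 0.23 in the S group and -4.13 ± 0.53 in the C group, a difference of 0.28 (exact permutation p = 0.341, adjusted p = 0.683). That difference was 0.08 without C3, 0.19 without S5 and 0.42 without C1. None of the 18 ratios, which also covered Cd8b1 to Cd8a, passed after adjustment, and the smallest p that 252 arrangements of 5 and 5 libraries allow is 0.00794.

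A list of 30 further genes of the receptor pathway or related to it, none of them members, was set beside them. In platelets none was called in S against C or O against C, and in S against O only Sit1, an inhibitory adaptor, was called (1.20 ± 0.34). There 7.23% of all genes were higher at an unadjusted P under 0.05 by edgeR. In PBMCs none was called in S against C, 7 were higher in S against O and 5 were lower and 1 higher in O against C. By the same rule 4.43% of all genes were higher in S against O. In O against C 4.39% were lower and 7.56% higher. In PBMC O against C the lower genes included Sla2, an adaptor that dampens receptor signalling (-0.46 ± 0.11), and Cd96 (-0.36 ± 0.12), and the higher gene was Themis2 (0.41 ± 0.14). The median log2 change of the list was 0.07 in platelet S against C and -0.07 in PBMC O against C, against 0.26 and -0.34 for the T cell genes. Between tissues 15 of the 30 were called lower and 10 higher in platelets with TMM scaling, shares near those of all genes (45.2% and 37.1%). Among the higher were Grap2 (2.10 ± 0.17), Stim1 (1.76 ± 0.15) and Prkcq (1.47 ± 0.13), as was Lat among the members, while Ptprc, which encodes CD45 and marks leukocytes, was lower (-2.49 ± 0.23).

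Over the 15 PBMC libraries most members followed Cd3e. The Spearman correlation with Cd3e was 0.98 for Trbc2, 0.97 for Cd6 and 0.96 for Cd5, which with Cd3g (0.96) and the non-member A630023P12Rik were the 5 genes most like it among 12874, and 0.93 for Tcf7. The lowest were Rora (-0.05) and Txk (0.07). Over the 15 platelet libraries the members split. Thy1 (0.88), Cd4 (0.87), Cd6 (0.82) and Icos (0.80) followed Cd3e, whereas Tcf7 (0.03), Zap70 (0.08) and Skap1 (-0.07) did not, and Themis (-0.49), Sh2d1a (-0.48) and Dapl1 (-0.51) ran the other way. The 5 genes most like Cd3e in platelets, of 13202, were no members, namely Sun2, Ganab, Tram2, Cox17 and Cd27, at 0.95 to 0.96. These correlations are descriptions. The libraries share groups, depth and hemoglobin content, and Cd3e itself had 2217 counts over the 15 platelet libraries against 23304 in PBMCs.

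**Figure D4:**
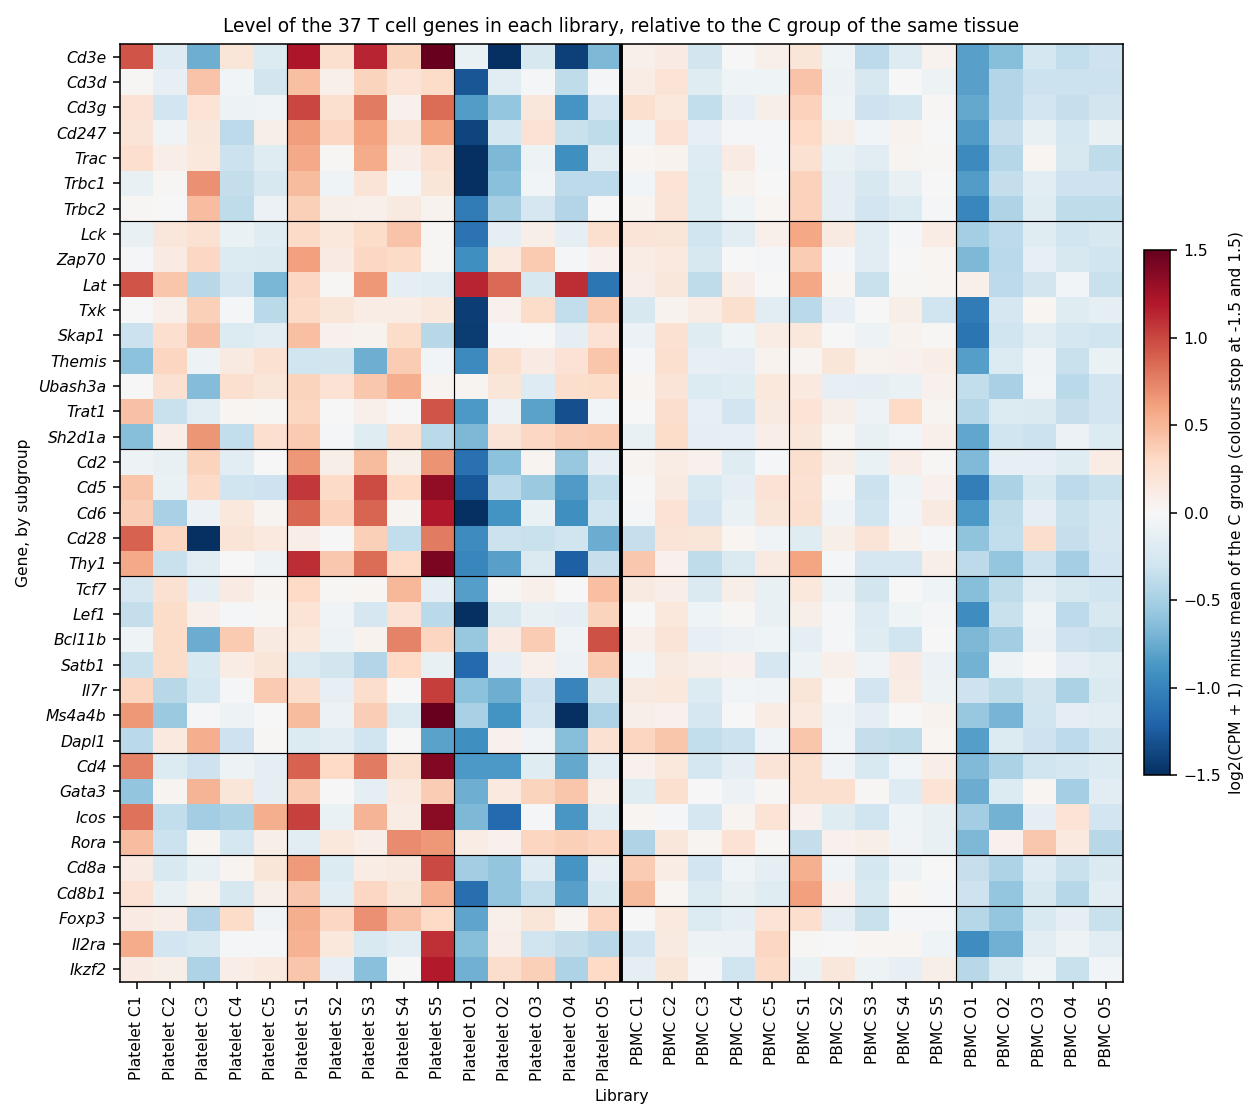
Level of each of the 37 T cell genes (rows, by subgroup) in each of the 30 libraries (columns), as log2(CPM + 1) minus the mean of the C group of the same tissue; red is higher and blue lower. Platelet S1, S3 and S5 are reddest in the rows of Cd3e, Cd5, Cd6, Thy1 and Cd4, and the O1 column is blue for most genes in both tissues but red for Lat in platelets.

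Markers of other cells were also called at an unadjusted P under 0.05 by edgeR. By this rule 4.29% of all genes were higher and 2.13% lower in platelet S against C. In platelet S against O 7.23% were higher and 6.67% lower, and in O against C 2.61% were higher and 2.17% lower. A count of 1 in a list of 10 is not far from such shares. In platelets 4 of 10 B cell markers were higher in S against C, 7 of 10 were higher in S against O and 4 of 10 were lower in O against C. Their summed level was 1118 to 1329.5 CPM in the C group, 1137 to 2326 CPM in the S group and 533 to 1321 CPM in the O group, with S5 the highest and O1 the lowest, and no B cell marker was at 0. For comparison the 37 T cell genes summed to 1421 to 1711, 1532 to 1956 and 1109 to 1558 CPM in the 3 groups, with S1 the highest and O1 the lowest. These sums include Lat, which platelets use as well. Of 10 NK cell markers 2 were higher in platelet S against C, and their sum was 105 to 189.6 CPM in the C group and 122 to 259.9 CPM in the S group, with none at 0. No dendritic cell or erythroid marker was called in that comparison, nor any of the 8 neutrophil markers tested, and 1 of 10 monocyte markers was lower. In platelet S against O, 3 of 10 NK cell markers were higher and 5 of 9 neutrophil markers tested were lower. NK cell markers summed to 56.6 to 168 CPM in the O group, and neutrophil markers to 322 to 523 CPM in the S group and 481 to 4879 CPM in the O group, with O1 the highest and with Ly6g and Camp at 0 in at least 1 S library. In the same comparison 2 of 10 monocyte markers were higher and 1 lower, 1 of 10 dendritic cell markers was higher and 1 lower, and 1 of 10 erythroid markers was lower. In O against C, 3 of 9 neutrophil markers were higher and no NK cell marker was called. The part of these markers in the platelet results was not tested.

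In PBMCs all 10 erythroid markers were higher in O against C, and hemoglobin genes took 6.52% to 24.5% of counts in the O group against 3.29% to 9.39% in the C group. By the same rule 7.56% of all genes were higher and 4.39% lower in PBMC O against C. In PBMC S against O 4.43% were higher and 7.8% lower. Neutrophil markers summed to 313 to 4338 CPM in the O group and 243 to 1444 CPM in the C group, with 1 of 10 called higher, and none of 10 B cell markers was called, although all 10 values were below 0. Of the NK cell markers 3 of 10 were lower in O against C, with sums of 147 to 267 CPM in the O group, 226 to 346 CPM in the C group and 288 to 341 CPM in the S group. Monocyte markers summed to 5069.7 to 6409 CPM in the O group, 4044 to 5427 CPM in the C group and 3049 to 5055 CPM in the S group, so that every O library lay above every S library. Of the 10 monocyte markers 1 was higher in O against C and 3 were lower in S against O. O1 was highest for hemoglobin and for neutrophil markers and lowest for the T cell genes, which summed to 2476 to 3107 CPM in the C group, 2446 to 3344 CPM in the S group and 1809 to 2509.7 CPM in the O group. In S against O, 9 of 10 NK cell markers, 2 of 10 B cell markers and 1 of 10 dendritic cell markers were higher, and 3 of 10 neutrophil and all 10 erythroid markers were lower. Without O1, 24 T cell genes were lower in O against C and 26 were higher in S against O. The part of red cell, neutrophil and monocyte RNA in the lower T cell gene levels was not tested. In platelets the hemoglobin share was 11.6% to 22.1% in the S group and 5.29% to 27.6% in the C group, so these groups overlapped.

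**Figure D5:**
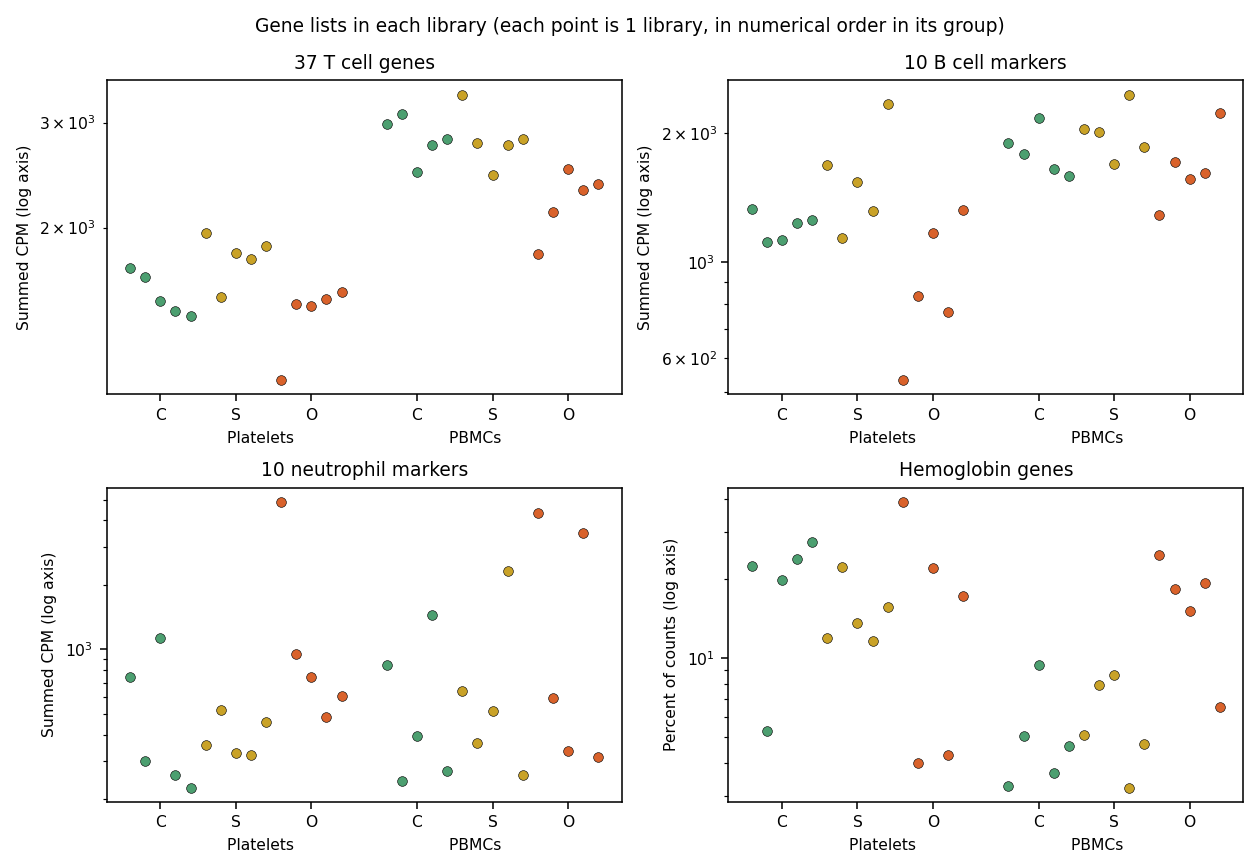
Summed CPM of the 37 T cell genes (Lat included), of 10 B cell markers and of 10 neutrophil markers, and the percent of counts on hemoglobin genes, in each library (log axes; green C, yellow S, orange O). The T cell genes of the PBMC O group lie at 1809 to 2509.7 CPM, and among PBMC libraries O1 holds the highest hemoglobin share, 24.5%.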

How the data were processed

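Platelet and PBMC RNA was sequenced from 30 pooled libraries, 5 per group and tissue. The deposited values were raw counts per Ensembl gene, which the authors made by removing low-quality reads, aligning with HISAT2 2.0.5 and counting with featureCounts 1.5.0-p3, on build mm9 by the submitters' processing notes. Platelet libraries were assigned by title, since their cell type label reads PBMC.

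Symbols and positions came from GENCODE M21 (GRCm38), which held 54495 of the 54532 gene IDs. Groups were compared within each tissue by edgeR 4.0.16 (R 4.3.3, quasi-likelihood test, filterByExpr, TMM factors), with standard errors taken as the log2 change divided by the square root of F and Benjamini-Hochberg adjustment over all genes that passed the filter, and all 37 T cell genes passed it in every fit. The tissues were compared in a fit that also held the group, and the difference in response was tested as an interaction contrast over all 30 libraries, which these fits treat as independent although platelet and PBMC pools may share mice (the replicate block, an alternative, pairs them by number). CPM used TMM factors over all libraries, so that the levels of 1 library need not sum to the same total. DESeq2 1.42.0, RLE size factors, no filter, a replicate block, all 3 groups in one fit, leaving out each library and library totals alone were alternatives. Shares of all genes called were taken for library totals alone and, at an adjusted P, for DESeq2, and not for the other alternatives. The steps were tested on simulated data.

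The T cell genes held 6216 to 30797 counts per platelet library. Replicates are pools of mice, and p-values measure the spread between these pools. Values in every library are given for Cd3e, Lck, Cd5, Tcf7, Cd4, Cd8a and Foxp3 and, in each comparison of groups, for up to 6 members with the smallest P. Members, marker lists and pathway genes were chosen with earlier results of these data known. The library values of Lat, Cd247 and Thy1 where the rule did not call for them were added after their values were seen.

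For the pairing check, same-numbered S and C PBMC libraries deviated together from their group means (r of 0.131 to 0.439 over genes in the 5 pairs, each above 0.1), and in no other pair of groups did all 5 pairs do so. The pairing comes from these correlations, not from the labels.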

Additional observations from a re-analysis of the deposited data

Results flagged for a closer look

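Among 48 groups of 5 libraries, formed by 8 values in 6 groups, 3 held a library set apart from the other 4 by Dixon's criterion (a gap above 0.71 of the range), where chance sets apart about 1 in 20. Cd4 stood at 34.1 CPM in platelet C1 against 15.9 to 18.9 in the other C libraries, Cd8a at 122 CPM in PBMC S1 against 69.98 to 85.02 in the other S libraries, and the summed T cell genes at 1109 CPM in platelet O1 against 1478 to 1558 in the other O libraries. That sum includes Lat, which platelets use as well, at 473 CPM in O1 and 100.5 to 461 CPM in the other O libraries. Whether O1 is set apart without Lat was not tested.

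The change differed between tissues, by the interaction contrast at an unadjusted P under 0.05 in edgeR, in 6 of 21 tests over the 7 genes given in every library, and in all 6 the platelet change was the higher. Of all genes tested, 3.33% were higher by this rule in S against C and 5.86% in S against O. In S against C the platelet change exceeded the PBMC change by 1.01 for Cd3e, 0.69 for Cd4 and 0.82 for Cd5 on the log2 scale. In S against O it did so by 1.34 for Cd3e, 0.79 for Cd4 and 0.95 for Cd5. None of the 6 passed at an adjusted P under 0.05 by edgeR.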

How the results depend on the processing

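With the replicate number as a block, the count of T cell genes called at an unadjusted P under 0.05 was 14 in platelet O against C (9 without the block), 1 in PBMC S against C (0 without) and 4 in the tissue difference of O against C (2 without). The block moved no other count by over 1.5 times, and Foxp3 lost its platelet S against C call under it. The share of all genes called under the block was not taken, so these counts have no background beside them. In PBMC S against C every library correlated best with its own number, as a hint from the data. Platelet O3 and C3 (r = 0.027) and O4 and C4 (r = -0.021) did not deviate together, so the block does not pair platelet O and C libraries.

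Scaled by library totals alone, an alternative chosen after seeing the data, the count was 0 in platelet O against C, 2 in the tissue difference of S against O (11 with TMM) and 7 in that of O against C, and the latter was 1 with no filter on low counts. The cause was not tested. The share of lower calls between tissues was 36 of 36 with library totals and 30 of 31 with TMM.

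Leaving out 1 library at a time gave 6 to 10 genes in platelet S against C, 16 to 21 in S against O and 4 to 13 in O against C. In PBMCs it gave 0 to 2, 21 to 29 and 17 to 27. It gave 31 to 32 between tissues, 4 to 8, 7 to 15 and 0 to 5 for the tissue differences of S against C, S against O and O against C, and 0 in all cases for the ratios. Shares of all genes called were not taken for these fits. DESeq2 and RLE size factors kept each count at an unadjusted P within 1.5 times of the edgeR count, and no named gene's called change reversed.

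At an adjusted P under 0.05 the count of T cell genes was 7 by DESeq2 and 0 by edgeR in platelet S against O, 3 and 0 in PBMC O against C, 1 and 0 in PBMC S against O and 1 and 0 in the tissue difference of S against O. Over the 15 platelet libraries Cd3e had 2217 counts and Foxp3 had 1335.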
